A study of Mus musculus with 4 samples.

Results

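The E2F transcription factors and the retinoblastoma (pocket) proteins that bind them were compared between myeloid-derived suppressor cells (MDSCs) of lal-/- and lal+/+ bone marrow. The members were E2f1, E2f2, E2f3, E2f4, E2f6, E2f7, E2f8, Rb1, Rbl1 and Rbl2, chosen by name, and every probe set of the array that names exactly 1 gene and names one of these was used. This gave 11 probe sets for 10 genes, of 21789 probe sets that name 1 gene and 19938 genes in all. E2f3 had 2 probe sets, and for the count of genes the brighter one stands for it. No filter on low values was applied, so all 10 members were tested.

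The lal-/- mice lack lysosomal acid lipase (LAL, encoded by Lipa), the enzyme that hydrolyzes cholesteryl esters and triglycerides in lysosomes, in all tissues, and the lal+/+ mice are the wild-type controls. Both genotypes were 5 months old, untreated as far as the labels state, and had been backcrossed to FVB/N. RNA of bone marrow MDSCs was hybridized to 4 Affymetrix Mouse Gene 1.0 ST arrays, 2 for each genotype. The labels describe the cells as CD11b and Gr-1 positive and the methods describe magnetic selection with an anti-Ly6G antibody, so the cells were selected by surface antigen. The methods describe the selected population as mostly Ly6G positive, and some other cells can remain in it. The methods state a number of mice for this RNA, but not how the animals were divided between genotypes and arrays or whether their RNA was pooled. The spread behind every p-value below is that of the 4 arrays, and it may be technical.

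E2F proteins bind DNA as dimers with a DP partner and control genes of DNA replication and of the cell cycle. E2F1, E2F2 and E2F3 are known as activators, E2F4 as a repressor that works with the pocket proteins RBL1 (p107) and RBL2 (p130), and E2F6 as a repressor that works with Polycomb proteins. E2F7 and E2F8 are atypical repressors that need no DP partner. RB1 and its relatives hold E2Fs in check until cyclin-dependent kinases phosphorylate them, and several E2F genes are themselves E2F targets.

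Promoter stretches of 4 members are shown because they carry the letters by which E2F genes are known to be controlled by E2F itself, and because 2 of these genes (E2f8 and E2f3) were called higher below. Capitals mark matches on either strand. The E2F letters searched were TTCCCGC and TTGGCGC, and also the related forms TTCGCGC and TTGCCGC. The letters of the cell cycle homology region (CHR), an element of genes of late cell cycle phases, were TTTGAA and TTCGAA. The sequences are from RefSeq, build GRCm38.p6, given 5′ to 3′ on the strand of the gene, and position -1 is the base before the annotated start.
E2f8, chr7:48881597-48881736, minus strand, position -140 to position -1: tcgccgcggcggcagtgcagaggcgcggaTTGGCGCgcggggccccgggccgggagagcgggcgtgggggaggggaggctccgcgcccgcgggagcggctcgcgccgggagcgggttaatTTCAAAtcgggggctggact
E2f7, chr10:110745199-110745359, plus strand, position -240 to position -80: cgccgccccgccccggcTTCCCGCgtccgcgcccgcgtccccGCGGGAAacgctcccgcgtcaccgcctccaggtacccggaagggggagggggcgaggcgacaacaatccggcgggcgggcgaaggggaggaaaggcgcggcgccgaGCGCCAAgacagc
E2f3, chr13:29986064-29986123, minus strand, position -60 to position -1: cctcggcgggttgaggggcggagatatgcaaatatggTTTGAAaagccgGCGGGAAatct
Rbl1, chr2:157204535-157204594, minus strand, position -60 to position -1: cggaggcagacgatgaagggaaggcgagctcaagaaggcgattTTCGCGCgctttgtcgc

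The E2f8 stretch holds 1 E2F match, at position -111, and 1 CHR match, at position -20. The E2f7 stretch holds 3 E2F matches, at position -223, position -198 and position -92, and no CHR match. The E2f3 stretch holds a CHR match at position -23 beside an E2F match at position -11, and the Rbl1 stretch an E2F match at position -17. These are matches of letters, and the arrays did not measure binding.

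Values below are log2 levels after quantile normalization of the deposited values, and a difference of 1 between genotypes is a 2-fold change. A gene was called higher or lower at an adjusted p under 0.05 (limma, Benjamini-Hochberg over all 21789 probe sets) and a fold of at least 2. Of all 19938 genes, 1508 were called higher in lal-/- cells (7.56%) and 646 lower (3.24%). All of the genes that passed 2-fold also passed the p threshold, their highest adjusted p being 0.0437, so the fold alone decided which genes were called. As a check of the labels, Lipa read 9.50 and 9.05 in lal+/+ and 7.37 and 7.49 in lal-/- cells, and the genotypes differed by -1.85 on the log2 scale (adjusted p = 4.17e-04, limma). Levels of 1035 probe sets of olfactory receptor genes, silent in most tissues, gave a 95th percentile of 6.79 in lal+/+ and 6.29 in lal-/- cells, called the silent level below. Each genotype was judged against its own level, so a gene can go from under to above it with little change. A change from under the silent level can be larger than the measured one.

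Of the 10 members, 3 were called higher in lal-/- MDSCs (E2f2, E2f3 and E2f8), beside 7.56% of all genes. None was called lower, beside 3.24% of all genes, and 7 were not called. A further 3 (E2f1, E2f7 and Rbl1) passed the p threshold with a fold under 2, so that 6 of 10 passed it with a higher level, beside 19.8% of all genes. In 9 members both lal-/- arrays lay above both lal+/+ arrays, beside 41.6% of all genes, and in Rb1 both lay below, though not under the other scalings given below. The median log2 fold change of the members was 0.57, against 0.08 over all genes. By the mean of a genotype, 5 members (E2f1, E2f2, E2f3, E2f6 and E2f7) lay under the silent level of lal+/+ cells (6.79). Only E2f6 lay under the lower silent level of lal-/- cells (6.29). The lal+/+ means of E2f8 (6.82) and Rbl1 (6.81) lay just above the lal+/+ level (6.79).

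**Figure D1:**
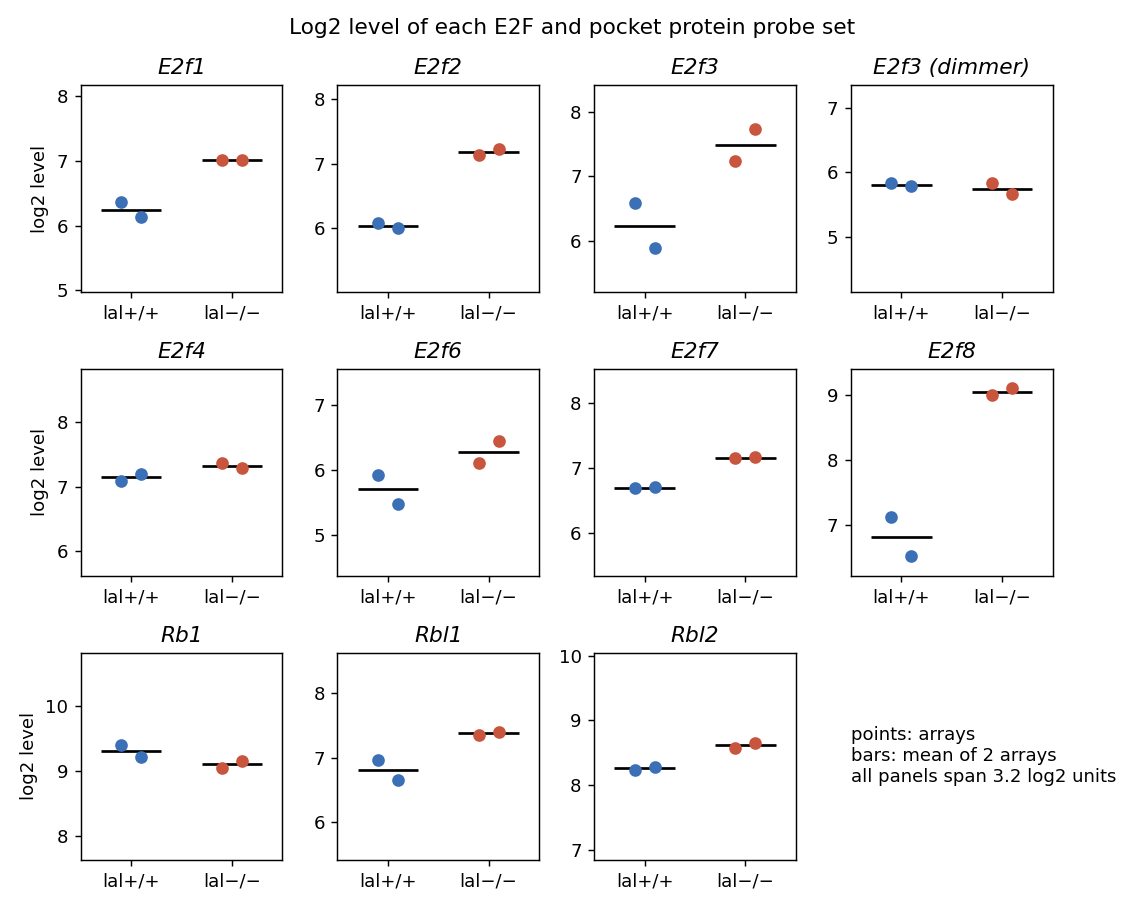
Log2 level (vertical axis) of each E2F and pocket protein probe set on the 2 lal+/+ arrays and the 2 lal-/- arrays, with a bar at the mean of a genotype. Each panel spans the same number of log2 units around its own levels, so the steps can be compared and the heights cannot; the step of E2f8, from 6.82 to 9.05, is the tallest, and only the dimmer E2f3 probe set has overlapping genotypes.

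Among the activators, E2f2 read 6.08 and 6.01 in lal+/+ and 7.13 and 7.22 in lal-/- cells. Its means were 6.04 ± 0.05 and 7.18 ± 0.07 (SD, n = 2 arrays each), a log2 fold change of 1.13 (standard error 0.12, 95% interval 0.84 to 1.43), which is 2.20-fold (adjusted p = 7.24e-04, limma). The 2 arrays of a genotype lay close together, and the step between genotypes was many times that gap.

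E2f3 read 6.58 and 5.89 in lal+/+ and 7.24 and 7.73 in lal-/- cells on its brighter probe set. The means of 6.23 ± 0.49 and 7.49 ± 0.35 (SD, n = 2 arrays each) differed by 1.25 on the log2 scale (standard error 0.26, 95% interval 0.64 to 1.87), or 2.39-fold (adjusted p = 0.0108, limma). The arrays of each genotype were farther apart than for any other member, and without lal+/+ replicate 2 the difference was 0.91 and was no longer called. The dimmer E2f3 probe set read 5.84 and 5.78 in lal+/+ and 5.83 and 5.66 in lal-/- cells, with overlapping genotypes and a difference of -0.06 (95% interval -0.37 to 0.24, adjusted p = 0.746, limma). It lay under the silent level in both genotypes, so its reading says nothing about whether E2f3 changed. With the mean of both probe sets the difference was 0.59 and was not called.

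E2f1, the first described member of the family, read 6.36 and 6.13 in lal+/+ and 7.01 and 7.02 in lal-/- cells. The difference of 0.77 (standard error 0.13, 95% interval 0.45 to 1.09) passed the p threshold (adjusted p = 0.00549, limma) at 1.70-fold, under the fold that was required. Within an array, E2f2 over E2f1 was higher in lal-/- cells by 0.37, and both lal-/- arrays lay above both lal+/+ arrays in this ratio. Both genes lay under the silent level in lal+/+ cells, so their ratio there is uncertain.

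Of the repressors, E2f4 read 7.08 and 7.20 in lal+/+ and 7.36 and 7.29 in lal-/- cells. The genotypes did not overlap, but the difference of 0.18 (95% interval -0.11 to 0.48) did not pass (adjusted p = 0.317, limma), and the interval leaves out a 2-fold change in either direction. E2f6 read 5.92 and 5.48 in lal+/+ and 6.12 and 6.45 in lal-/- cells, a difference of 0.58 (95% interval 0.13 to 1.03) that also did not pass (adjusted p = 0.0589, limma). It was 0.36 without lal+/+ replicate 2, and it passed the p threshold, still under 2-fold, without lal+/+ replicate 1 (adjusted p = 0.0184, limma), with the arrays shifted to equal medians (0.0397), with an intensity trend and robust variances (0.0418) and with a crossed replicate block (0.0114). The means of both genotypes lay under the silent level for E2f6, so its signal is hard to tell from that of a gene that is not expressed. The lal-/- mean (6.28) was only just under that level (6.29), and lal-/- replicate 2 lay above it.

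The atypical repressors moved by unequal amounts. E2f8 read 7.118 and 6.514 in lal+/+ and 8.997 and 9.104 in lal-/- cells, with means of 6.82 ± 0.43 and 9.05 ± 0.08 (SD, n = 2 arrays each). Its log2 fold change of 2.23 (standard error 0.20, 95% interval 1.75 to 2.72), or 4.71-fold, was the largest of the members (adjusted p = 3.77e-04, limma). E2f7 read 6.69 and 6.70 in lal+/+ and 7.15 and 7.17 in lal-/- cells, a difference of 0.46 (standard error 0.12, 95% interval 0.18 to 0.74) at 1.38-fold. The E2f7 difference passed the p threshold (adjusted p = 0.0253, limma) but not the fold, and it missed the p threshold without either lal-/- array (adjusted p = 0.139 and 0.163, limma). Within an array, E2f8 over E2f7 was higher in lal-/- cells by 1.77 on the log2 scale, with both lal-/- arrays above both lal+/+ arrays. In lal+/+ cells E2f7 lay under the silent level and E2f8 just above it, so their ratio there is uncertain.

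**Figure D2:**
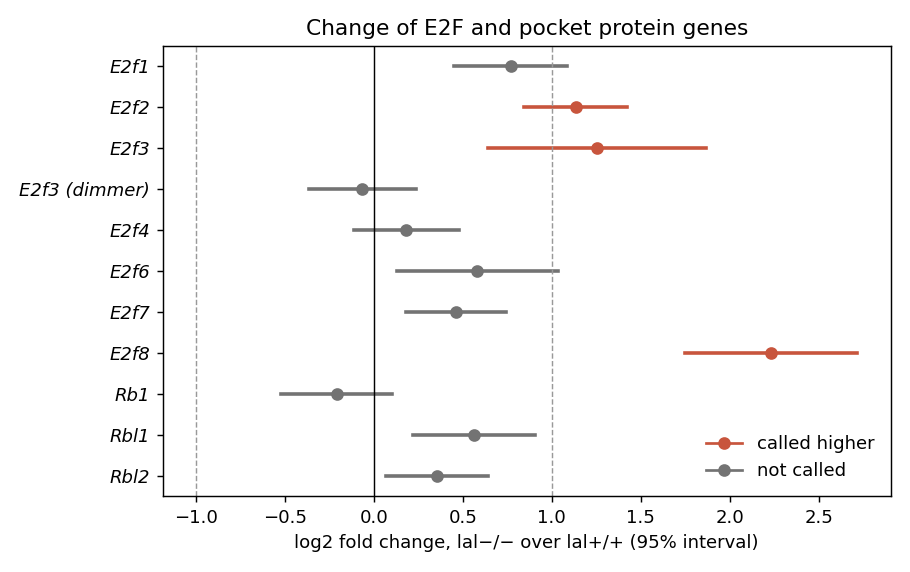
Log2 fold change of each member, lal-/- over lal+/+ (horizontal axis), with the 95% interval of the moderated fit; dashed lines stand at a 2-fold change in each direction. E2f2, E2f3 and E2f8 lie past the right line, and the lower end of the interval does so only for E2f8 (1.75).

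None of the 3 pocket protein genes was called, and neither were E2f1, E2f4, E2f6 and E2f7. The differences of Rbl1 (0.56) and Rbl2 (0.35) lay among those of these E2Fs (0.18 to 0.77). Rbl1, which encodes p107, read 6.96 and 6.66 in lal+/+ and 7.36 and 7.39 in lal-/- cells. Its difference of 0.56 (standard error 0.14, 95% interval 0.22 to 0.91), or 1.48-fold, passed the p threshold (adjusted p = 0.0257, limma) under the required fold, and it missed that threshold without lal+/+ replicate 2 (adjusted p = 0.0634, limma) and without lal-/- replicate 1 or 2 (adjusted p = 0.0991 and 0.122, limma). Rbl2, which encodes p130, the pocket protein of resting cells, read 8.24 and 8.28 in lal+/+ and 8.57 and 8.65 in lal-/- cells, a difference of 0.35 (95% interval 0.07 to 0.64, adjusted p = 0.0681, limma). It did not pass, although with the arrays only shifted to equal medians, without quantile normalization, the difference was 0.86 (adjusted p = 0.00105, limma), still under 2-fold.

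Rb1, the retinoblastoma gene itself, read 9.41 and 9.22 in lal+/+ and 9.05 and 9.16 in lal-/- cells. Its difference of -0.21 (95% interval -0.52 to 0.10) did not pass (adjusted p = 0.284, limma), and its sign depended on the scaling. It was 0.41 with the arrays only shifted to equal medians and 0.23 in the values as deposited, where the genotypes overlapped at 9.26 and 8.91 in lal+/+ and 9.26 and 9.37 in lal-/- cells. No direction can therefore be given for Rb1. Ratios within an array kept their direction under both scalings. Rbl1 over Rb1 was higher in lal-/- cells by 0.77 (0.32 as deposited), Rbl2 over Rb1 by 0.56 (0.46 as deposited), and the mean of E2f1 to E2f3 over the mean of the pocket proteins by 0.82 (0.48 as deposited). In lal+/+ cells E2f1, E2f2 and E2f3 lay under the silent level, so the size of the last difference is uncertain.

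**Figure D3:**
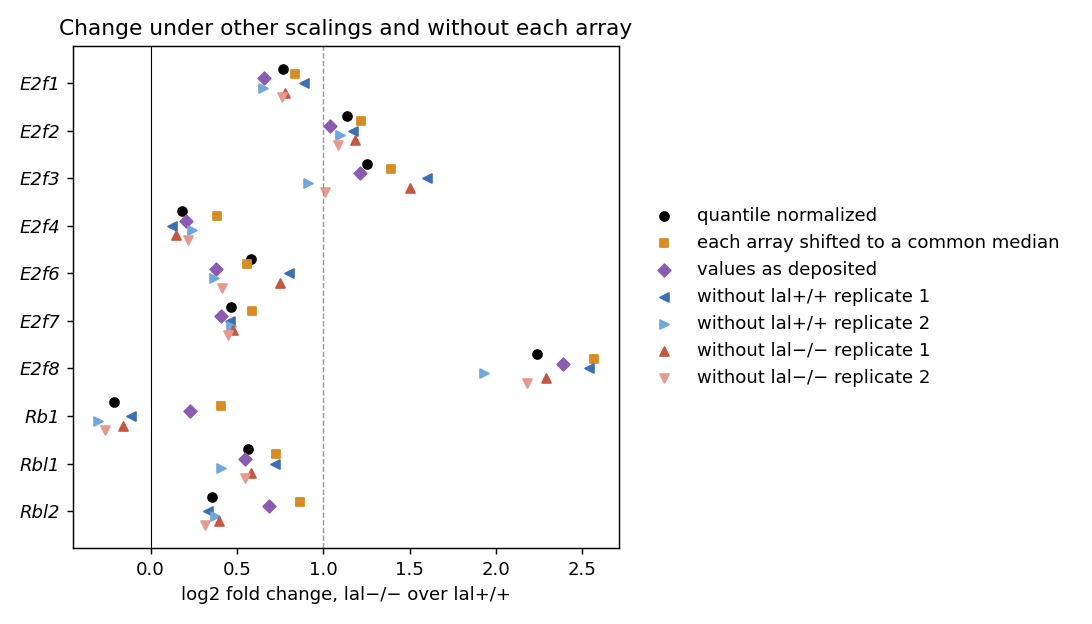
Log2 fold change of each gene (horizontal axis) after quantile normalization, with arrays shifted to equal medians, in the values as deposited, and with each array left out in turn; the dashed line stands at 2-fold. E2f8 lies past the line in all of these settings and E2f3 falls to 0.91 without lal+/+ replicate 2, while Rb1 lies on both sides of 0.

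The markers of cell types moved with genotype too, and their part in the results for the E2F genes was not tested. In bulk RNA, fewer cells of a type and less RNA of a gene per cell cannot be told apart. All 5 measured genes of primary granules, which are made by promyelocytes, were called higher in lal-/- cells (median log2 fold change 3.65), with mean levels of 5.66 to 5.68 in lal+/+ and 8.75 to 8.83 in lal-/- cells, and all 5 were under the silent level in lal+/+ cells. Of 7 secondary granule genes 6 were called higher (median 1.67). All 7 measured B cell genes were called lower (median -3.95, mean levels 9.60 to 9.77 in lal+/+ and 5.92 to 6.05 in lal-/- cells, 3 of them under the silent level in lal-/- cells), and 6 of 9 genes of monocytes and macrophages were called lower (median -1.43, mean levels 8.74 to 8.89 and 7.06 to 7.12). Among the monocyte and macrophage genes, Ccr2 went the other way (0.83, adjusted p = 0.0160, limma), under the required fold. Of 8 genes of mature neutrophils, Mmp9 (2.07) and Mmp8 (1.23) were called higher and Csf3r (-1.91) and Il1b (-1.99) lower (median 0.13). Of 5 measured T cell genes, Cd3d (2.42) was called higher and Cd3g (-2.01) and Cd3e (-1.28) lower (median -0.64). None of 6 erythroid genes was called, and 1 of 6 progenitor genes was (Kit, 1.23).

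The genes around the E2Fs were described from 11 lists of partners, regulators and targets. Calls in each list stand beside 7.56% of all genes called higher and 3.24% called lower. The G2/M targets named below are genes of G2 and mitosis, and their control by E2F was not tested. Of the DP partners, Tfdp1 was called higher, with 10.23 and 10.13 in lal+/+ and 11.26 and 11.34 in lal-/- cells and a log2 fold change of 1.12 (adjusted p = 7.94e-04, limma). Tfdp2 differed by -0.63 (adjusted p = 0.0294, limma), under the required fold. Among 8 genes of the MuvB core, the MYB factors and FoxM1, which together control genes of late cell cycle phases, Foxm1 (1.43) and Lin54 (1.17) were called higher and none lower. Mybl2 differed by 0.12 and Lin52 by -0.43, and the median of this list was 0.53. Foxm1 lay under the silent level in lal+/+ cells.

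Among 9 genes of G1 cyclins, their kinases and Cdc25a, 4 were called higher and 1 lower. The 4 were Cdk2 (1.89) and Ccne2 (1.19), a kinase and a cyclin that phosphorylate pocket proteins late in G1, Cdc25a (1.66), the phosphatase that activates Cdk2, and Ccnd3 (1.14). Ccnd2, another D-type cyclin, was called lower (-1.46), while Cdk4 differed by -0.46 and Ccne1 by -0.22 and were not called. Of 6 measured Cdk inhibitors, Cdkn2c (1.80) and Cdkn2d (1.76), inhibitors of Cdk4 and Cdk6, were called higher and none lower, and Cdkn1b differed by -0.46. Of 7 genes that act in the turnover of cell cycle proteins, Cks1b (1.62) and Ccnf (1.11) were called higher. Of the genes called higher in these lists, Cdk2, Ccne2, Cdc25a, Cdkn2c and Ccnf lay under the silent level in lal+/+ cells.

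The corepressors of the pocket proteins were not called in either direction (0 of 9 measured, median -0.21), although 2 passed the p threshold with a higher level and 4 with a lower one, all under 2-fold. Sin3b (0.93) and Hdac1 (0.74) stood at the upper end of this list and Arid4b (-0.98) and Rbbp7 (-0.86) at the lower end. Of 8 genes of the Polycomb complex that holds E2F6, Max (1.11), a partner of MYC, was called higher, and Mga (-1.42) and Pcgf6 (-1.43) were called lower, with Pcgf6 under the silent level in both genotypes. The 5 germline genes that E2F6 is known to repress all lay under the silent level in both genotypes, and none was called (median -0.03). None of 5 measured apoptotic targets of E2F1 was called (median -0.06). Apaf1 passed the p threshold with a higher level under 2-fold (0.60, adjusted p = 0.0199, limma), and none passed it with a lower level. Over all genes 7.56% were called higher and 3.24% lower. The lack of calls among the corepressors, the germline genes and the apoptotic targets therefore says little about them.

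Targets of E2F in the G1/S step of the cell cycle were mostly higher by less than 2-fold. Of 25 measured genes 7 were called higher, beside 7.56% of all genes, and none lower, beside 3.24%. A higher mean in lal-/- cells was found for 24, beside 59.7% of all genes. The p threshold was passed with a higher level by 14 (the 7 called among them), beside 19.8% of all genes. The median log2 fold change was 0.64. Those called were Ccna2 (2.08), Rrm2 (1.69), Prim1 (1.55), Tyms (1.38), Rrm1 (1.34), Mcm5 (1.16) and Mcm3 (1.01), which encode a cyclin, enzymes of nucleotide synthesis, a primase subunit and 2 subunits of the replicative helicase. Pcna (-0.23) and Cdt1 (0.02), both needed for replication, were not called. Over all genes the median was 0.08. In lal+/+ cells 11 of the 25 G1/S genes lay under the silent level, among them Prim1, Mcm5 and Mcm3.

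Of 21 measured genes of G2 and mitosis, 19 were called higher, beside 7.56% of all genes, and none lower, with a median of 1.66. Bub1 (2.57), a kinase of the spindle checkpoint, Cdk1 (2.49), the mitotic kinase, and Kif11 (2.35), a spindle motor, had the largest differences. Mki67 (0.52) and Kif23 (-0.13) were the 2 that were not called. In lal+/+ cells 10 of the 21 lay under the silent level, Bub1 among them, so the size of those changes is uncertain. The counts of the G1/S and G2/M lists were not tested against each other.

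**Figure D4:**
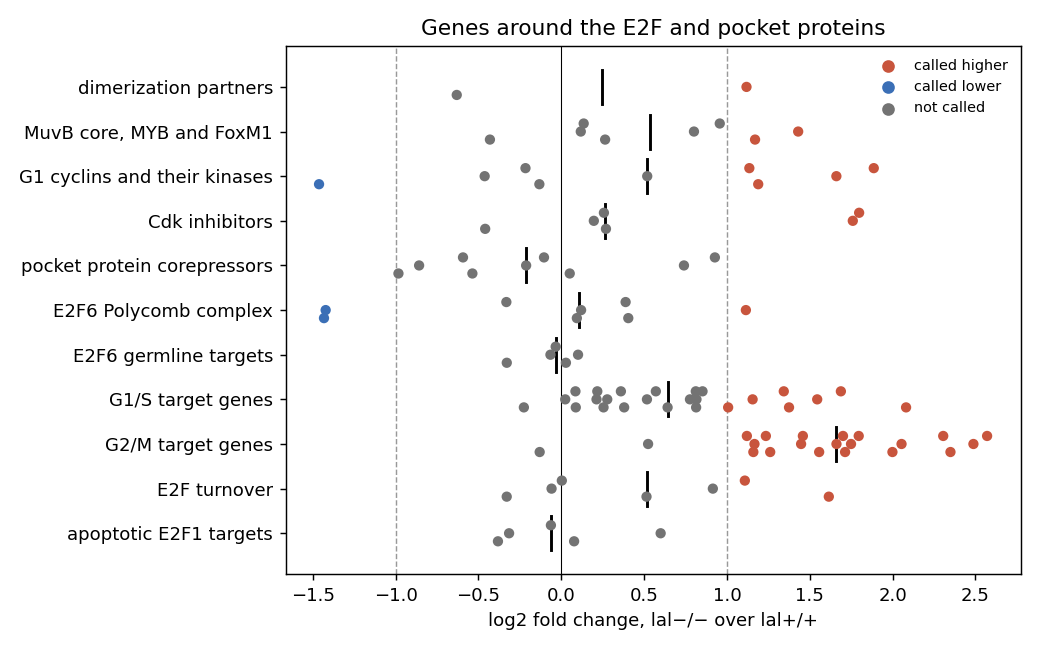
Log2 fold change, lal-/- over lal+/+ (horizontal axis), of each measured gene in 11 lists of genes around the E2Fs. A bar stands at the median of a list and dashed lines at a 2-fold change in each direction. The genes of G2 and mitosis lie mostly past the right line (19 of 21 called higher). The G1/S targets lie mostly between 0 and that line (7 of 25 called higher).

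E2f8 was set beside all other genes by the distance between centred levels over the 4 arrays. The 5 genes nearest to it were Slc25a11 (distance 0.0601), a mitochondrial carrier, Cdca8 (0.0773), a subunit of the chromosomal passenger complex, Fas (0.0992), a death receptor, Prc1 (0.107), a protein of the spindle midzone, and Lmo4 (0.119), a LIM domain protein. Their log2 fold changes lay between 2.12 and 2.32, against 2.23 for E2f8, and in each of them lal+/+ replicate 1 read above lal+/+ replicate 2, as in E2f8. With 4 arrays in 2 genotypes, the likeness rests on the size of the step and on the gap between the lal+/+ arrays. Within an array E2f8 over Ccna2, a G1/S target with a step of similar size, differed by 0.15 between genotypes, and the genotypes overlapped.

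The same letters were looked for in all genes of the RefSeq promoter table, on both strands of the 300 bases from 250 before to 50 after each annotated start, with a match at any listed start counted. By their spelling, the E2F and CHR letters searched cannot overlap each other. Of 27025 genes, 10.9% held E2F letters and 21.7% held CHR letters. Of the 8 members with an entry, 5 held E2F letters (E2f2, E2f3, E2f7, E2f8 and Rbl1) and 4 held CHR letters (E2f2, E2f3, E2f8 and Rbl2), while E2f1 and E2f6 held neither in this window. The 3 members called higher, E2f2, E2f3 and E2f8, were those with both kinds of letters. In E2f2 the E2F letters lie at position 41 of one start and the CHR letters at position -31 of another. This overlap was noticed after the values were seen and is a description of 8 genes. The share of all genes with both kinds of letters was not counted. E2f3 kept its call in 5 of the 7 alternative settings that change the fold. Whether the letters bear on the levels was not tested. Among the G1/S targets 17 of 22 genes held E2F letters and 3 held CHR letters, and among the G2/M targets 3 of 18 held E2F letters and 15 held CHR letters.

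**Figure D5:**
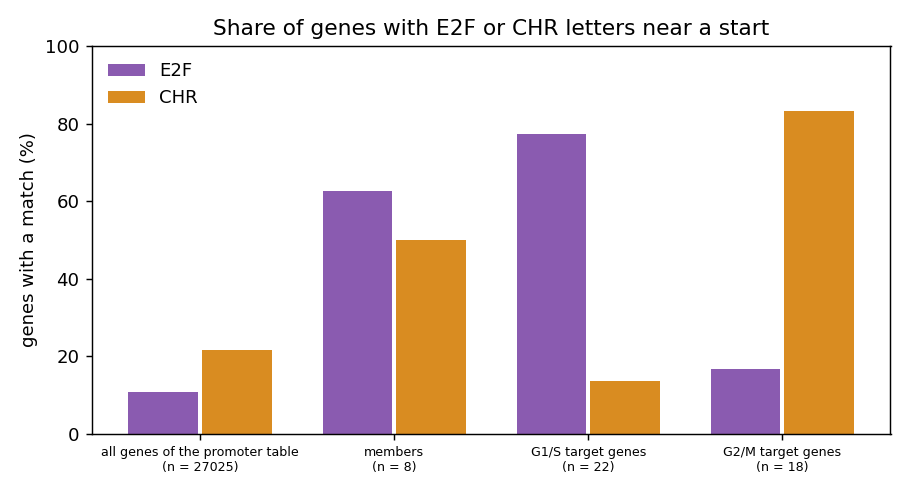
Percentage of genes (vertical axis, from 0) with E2F or CHR letters in the 300 bases around an annotated start, for all genes of the promoter table, the members, and the G1/S and G2/M target lists, with the number of genes under each pair of bars. The members stand at 62.5% for E2F and 50% for CHR, the G1/S targets at 77.3% and 13.6%, and the G2/M targets at 16.7% and 83.3%.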

How the data were processed

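The deposited values are log2 levels, which the authors obtained by RMA (background correction, quantile normalization and summary per probe set) in Partek Genomics Suite. The submitters' processing notes name GCOS 1.1. The labels name NuGEN reagents, and the methods an Affymetrix kit. The array medians as deposited spanned 0.208, over the limit of 0.1, so the 4 arrays were quantile normalized. Genotype was fitted with limma 3.58.1 in R 4.3.3 (prior degrees of freedom 4.83, residual 2) with Benjamini-Hochberg adjustment. The methods' tissue term cannot be fitted to 1 tissue. An exact two-sided permutation test of 2 against 2 arrays cannot go below 0.333. Of 35557 probe sets, 23410 are in the gene table, and 1621 of these name several genes. Of those that name 1 gene, 21698 were matched to a current RefSeq symbol and 91 kept the listed symbol. The number of arrays limits the precision. All members were named, genes of lists if called or to show a split list, and the 5 genes nearest to the member that changed most. Members and lists were chosen with earlier results of these data known. The procedure was tested on simulated data. Alternatives were other scalings, filters, variance models, thresholds and probe set rules, a replicate block, and each array left out. A crossed block was added after seeing the data. Promoter matches are exact.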

Additional observations from a re-analysis of the deposited data

How the results depend on the processing

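Of 15 alternatives, 7 change the fold itself (other scalings, the mean of probe sets, each array left out), and over these E2f2 and E2f8 were called higher in 7 each and E2f3 in 5. The others leave the fold as it is and could move a call only through the p-value or the threshold. An ordinary linear model without moderation called no gene. It gave 0 members higher, 0 of all genes higher and 0 lower, and 0 in the G1/S and 0 in the G2/M list, with 5 members and 5691 genes at an unadjusted p under 0.05. Adjusted p-values there were 0.0649 for E2f2, 0.246 for E2f3 and 0.110 for E2f8. E2f3 also lost its call at an adjusted p under 0.01 and with the mean of its probe sets. Without a fold threshold the counts were 6 members higher, 3938 genes higher and 1963 lower, and 14 G1/S targets higher. With a common median 2620 genes were called higher and 466 lower (84.9% higher, against 70.0% in the main setting), with a median log2 fold change of 0.12. As deposited, 2013 were higher and 632 lower (76.1% higher), with a median of -0.05. Rb1 turned to 0.41 and 0.23 in these settings, and the dimmer E2f3 probe set ranged from -0.15 to 0.018 with each array left out, turning without lal-/- replicate 2. The cause of these changes was not tested.

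Leaving out each array in turn gave 2 to 3 members higher, 1353 to 1705 genes higher and 654 to 695 lower, 6 to 9 G1/S and 17 to 19 G2/M targets higher. In these fits a lone array was assumed to vary like the other genotype.

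Replicate numbers did not pair the arrays (correlation of deviations -0.175). With the replicate block 3 members, 1508 genes, 7 G1/S and 19 G2/M targets were higher, and the crossed pairing gave the same counts. A block leaves the fold changes of this balanced design as they are, and the fold alone decided the calls, so these equal counts say nothing about stability. The p of E2f7 was 0.0532 with the block (adjusted, limma). Signal near the silent level limits what can be said of E2f6 and of the lal+/+ levels of E2f1, E2f2, E2f3 and E2f7. The limit also touches the lal+/+ levels of E2f8 and Rbl1. Their means (6.82 and 6.81) lay just above the silent level of 6.79, and lal+/+ replicate 2 lay under it (6.51 and 6.66).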
